A study of Homo sapiens with 16 samples.

Results

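Secreted stress hormones and growth factors were followed through glutamine withdrawal in colorectal carcinoma cells. The set comprised 9 genes, namely GDF15, ADM2, FGF19, FGF21, STC1, STC2, VEGFA, EREG and AREG. A gene was represented by probe sets that carried its symbol alone, and by the brightest where there were several. This gave 8 of the 9 genes, each with 1 probe set, among 22395 genes with a probe set of their own, and AREG was not analysed here. Of the 8 genes, 7 were among the 15676 genes bright enough to be tested, and STC1 was not.

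Total RNA was taken from DLD1 and HCT116, established human colorectal carcinoma lines, and measured on Affymetrix whole-transcript arrays. PIK3CA encodes the catalytic p110-alpha subunit of phosphoinositide 3-kinase, and each line was used as a pair of derivatives that keep different PIK3CA alleles. In DLD1 Mut and HCT116 Mut cells the WT allele had been deleted, and in DLD1 WT and HCT116 WT cells it was the mutant allele. Each derivative was kept for 24 h in DMEM with 10% dialyzed fetal bovine serum, with glutamine (+Gln) or without it (-Gln), so that there were 16 arrays in 8 groups, each with 2 biological replicates. All 4 derivatives thus carried a knockout, no parental cells were among the samples, and the labels name 1 derivative per genotype of a line, so an effect of the allele and of the derivative cannot be told apart. Nor can fewer expressing cells and less RNA per cell be told apart in RNA of whole cultures.

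The products of these genes leave the cell and act on receptors of other cells or of the same cell. GDF15 and FGF21 are hormones that cells release under mitochondrial, nutrient or endoplasmic reticulum stress, in part through the transcription factor ATF4 of the integrated stress response, and FGF19 is the enterokine by which the ileum restrains bile acid synthesis in the liver. Stanniocalcins (STC1 and STC2) are secreted glycoproteins linked to mineral handling and to inhibition of pappalysin proteases, ADM2 is a vasoactive peptide of the calcitonin family, VEGFA is the main angiogenic factor of hypoxic tissue, and EREG and AREG are ligands of the EGF receptor that colorectal tumours often express.

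Median intensities of the 16 arrays lay between 3.57 and 3.70, and the 2 arrays of a group correlated at 0.989 to 0.992 (Pearson r across genes, which are not replicates). Of 10 epithelial markers EPCAM, CLDN7, CDH1 and KRT19 were the brightest, with mean log2 intensities of 10.8, 10.5, 10.1 and 9.89. KRT18, CLDN4 and CDX2 averaged 6.61, 6.51 and 6.42, and KRT8 and KRT20 4.58 and 4.28. VIL1, an intestinal brush border marker, averaged 2.03. Over the arrays the intensity of CDH1 ran from 421 to 3085 and that of KRT20 from 4.11 to 686. Of the markers of other cell types only COL1A1 of 5 fibroblast genes was bright enough to test, and none of 4 leukocyte or 3 endothelial genes was. Summed intensities of the leukocyte markers ranged from 14.1 to 23.0 in DLD1 Mut cells with glutamine and from 8.09 to 12.5 elsewhere. Of these markers CD14 had the highest maximum, and PTPRC, CD3E and LYZ did not exceed 2.37, 3.16 and 4.34 on any array. Sums of the fibroblast markers ranged from 13.4 to 22.9 and those of the endothelial markers from 7.17 to 9.51. The part of the markers of other cell types in the results was not tested. PIK3CA itself was not analysed here.

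The RefSeq table of start-site windows, build GRCh38.p14, held 6 of the 9 genes (not FGF19, VEGFA or STC1). A window runs from 250 bases before the start site to 50 bases after it on the gene's own strand. Windows of the genes that rose on average without glutamine (GDF15, ADM2 and EREG), of STC2, which rose in HCT116 WT cells, and of FGF21, which alone held the amino acid response element core, are shown so that their letters can be set beside the expression values. Capitals mark every match, on either strand, to TGATGNAA (core of the amino acid response element), TGACG (part of the cyclic AMP response element), TGANTCA (AP-1), ACGTG (core of the hypoxia response element) or CCAAT.
GDF15, chr19:18385908-18386207, + strand: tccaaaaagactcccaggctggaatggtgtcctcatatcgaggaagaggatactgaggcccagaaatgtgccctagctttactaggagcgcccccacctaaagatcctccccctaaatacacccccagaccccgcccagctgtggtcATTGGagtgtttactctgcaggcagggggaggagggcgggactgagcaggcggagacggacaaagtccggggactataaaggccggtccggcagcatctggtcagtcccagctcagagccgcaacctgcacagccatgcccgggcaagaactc
ADM2, chr22:50481293-50481592, + strand: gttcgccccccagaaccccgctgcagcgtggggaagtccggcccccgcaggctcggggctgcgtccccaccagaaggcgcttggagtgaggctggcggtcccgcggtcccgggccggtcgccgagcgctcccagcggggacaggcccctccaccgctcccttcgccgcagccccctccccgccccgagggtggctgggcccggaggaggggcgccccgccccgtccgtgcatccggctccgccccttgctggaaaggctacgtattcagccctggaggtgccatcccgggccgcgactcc
STC2, chr5:173328365-173328664, - strand: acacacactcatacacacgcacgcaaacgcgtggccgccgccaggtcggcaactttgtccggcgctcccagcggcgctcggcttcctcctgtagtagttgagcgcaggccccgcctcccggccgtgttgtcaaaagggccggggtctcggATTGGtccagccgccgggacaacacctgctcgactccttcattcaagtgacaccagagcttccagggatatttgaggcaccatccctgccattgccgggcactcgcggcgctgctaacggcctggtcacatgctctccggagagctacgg
EREG, chr4:74364895-74365194, + strand: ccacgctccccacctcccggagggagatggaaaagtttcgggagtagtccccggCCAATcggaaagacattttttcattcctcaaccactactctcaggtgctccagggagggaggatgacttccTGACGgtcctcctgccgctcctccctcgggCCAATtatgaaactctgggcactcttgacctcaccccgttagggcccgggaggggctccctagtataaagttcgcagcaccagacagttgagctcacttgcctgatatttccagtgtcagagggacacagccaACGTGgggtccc
FGF21, chr19:48755274-48755573, + strand: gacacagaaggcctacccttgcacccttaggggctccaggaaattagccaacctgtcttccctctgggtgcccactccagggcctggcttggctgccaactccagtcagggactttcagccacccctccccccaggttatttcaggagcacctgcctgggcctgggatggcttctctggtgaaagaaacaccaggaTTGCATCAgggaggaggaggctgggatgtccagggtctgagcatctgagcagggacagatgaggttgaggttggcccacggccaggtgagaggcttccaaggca

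The amino acid response element core was present in 1 of the 6 windows, that of FGF21, where it lies on the reverse strand with its first shown base at position -54, the start site being +1. That core was held by 3.62% of all 35116 windows. CCAAT was found in the windows of GDF15 (reverse strand, -103), STC2 (reverse strand, -100) and EREG (-196 and -95), against 34.6% of all windows. TGACG was present at -125 of EREG and on both strands of the AREG window, at -65 and -62, where the matches overlap, against 24.6% of all windows. EREG also held ACGTG at position 39, a match shared by 21.4% of windows. TGANTCA, present in 7.71% of all windows, matched none of the 6, and the ADM2 window held none of the 5 motifs. These are matches of letters in 300 bases and show no binding.

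The comparison with and without glutamine asks which of these genes respond to its loss. On average over the 4 derivatives GDF15, VEGFA, ADM2 and EREG rose, by 2.08-, 2.15-, 2.37- and 1.41-fold, so that 4 of the 7 tested genes rose where 24.3% of all tested genes rose, 23.5% fell and 47.7% were called. A gene was called at an adjusted p under 0.05. The median log2 change of the 7 was 0.50, against -0.0042 over all tested genes. STC2 and FGF19 were bright in HCT116 cells and dim in DLD1 cells, and FGF21 and STC1 were dim on every array. ADM2 was also rather dim, at 4.49 to 32.8 with a median intensity of 13.1, so that its fold depends on the scale. With 16 added to each intensity its mean log2 change was 0.52 in place of 1.24.

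**Figure D1:**
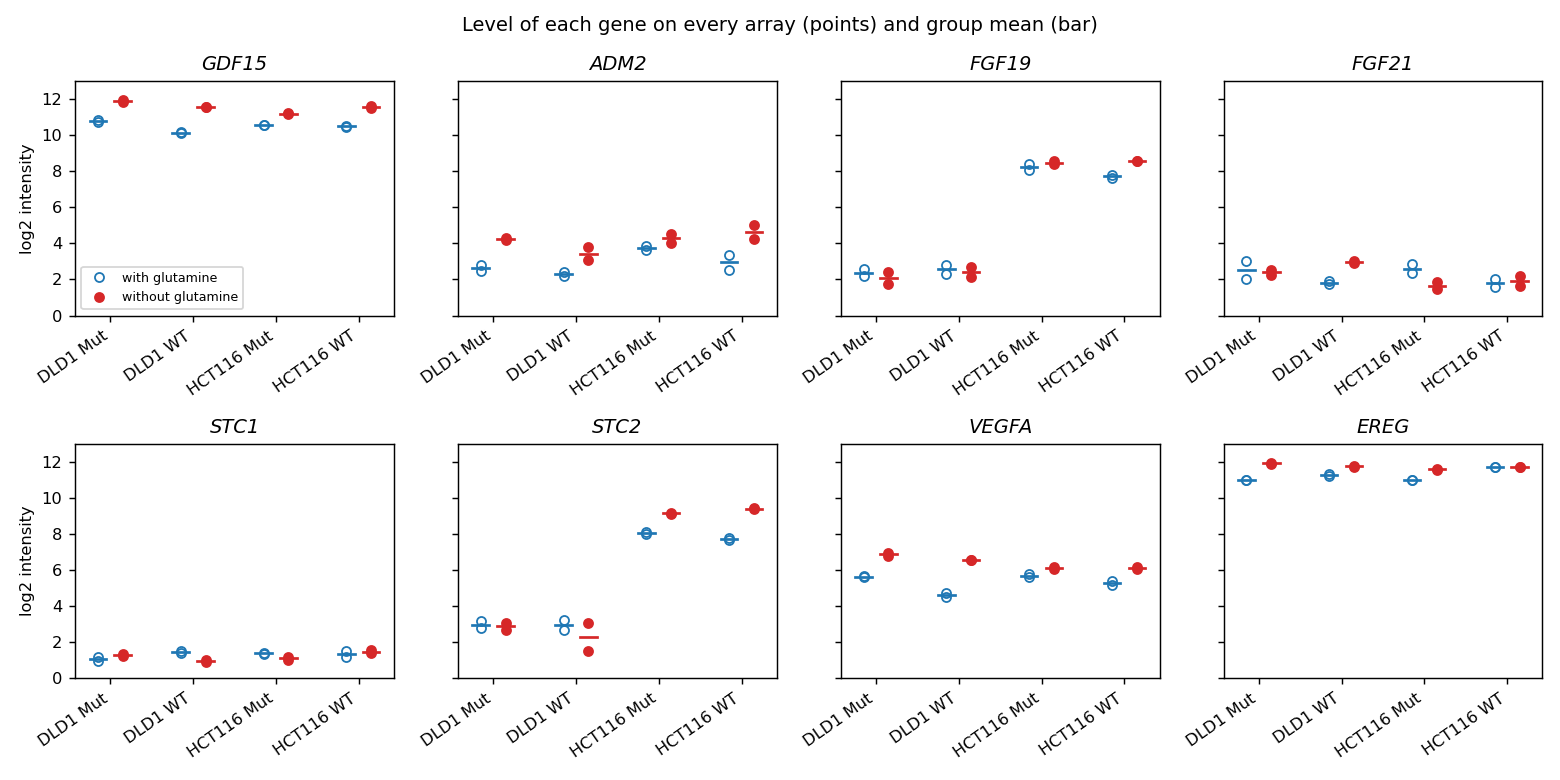
Level of each of the 8 genes (log2 intensity, vertical axis) on every array in the 4 derivatives. Open points are arrays with glutamine, filled points arrays without it, and bars group means of 2 arrays. GDF15 and EREG lie above 10 on all arrays, FGF19 and STC2 above 7 in HCT116 and below 4 in DLD1 cells.

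By derivative, 4 of the 7 genes rose in DLD1 Mut cells, where 16.8% of all tested genes rose and 33.6% were called in either direction. In DLD1 WT cells 5 of the 7 rose, against 14.0% of all tested genes rising and 27.0% called. In HCT116 Mut cells 3 rose and FGF21 fell, against 16.4% rising and 32.9% called. In HCT116 WT cells 5 rose, against 10.3% rising and 20.3% called. The genes called were not the same in each derivative: GDF15 and VEGFA rose in all 4, ADM2 and EREG each in 3.

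GDF15 (chr19:18386158-18389176, GRCh38.p14) is a distant member of the TGF-beta family that signals through GFRAL and RET in the hindbrain. In DLD1 Mut cells its intensity was 1697 and 1845 with glutamine and 3931 and 3629.6 without. In DLD1 WT cells the arrays read 1168 and 1099 with glutamine and 3052 and 3019.6 without. Every array without glutamine thus stood above every array with it in DLD1 cells, and the WT arrays with glutamine were the lowest of the 16. HCT116 Mut cells had 1492 and 1519 with glutamine and 2409 and 2280.3 without. HCT116 WT cells had 1423 and 1441 with glutamine and 2906 and 3135 without. The arrays of each HCT116 derivative did not overlap either, and the rise left HCT116 Mut as the lowest of the 4 groups without glutamine.

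The log2 changes of GDF15 were 1.09 ± 0.09 (SE, 2 against 2 arrays, adjusted p = 8.49e-06) in DLD1 Mut and 0.64 (0.000288) in HCT116 Mut cells, and 1.42 (3.29e-06) and 1.08 (2.27e-05) in the WT cells of these lines, with the same SE, since the fit shares 1 spread per gene. The mean change was 1.06 ± 0.04 (adjusted p = 3.09e-08), higher in 4 of 4 derivatives. The response was larger in DLD1 than in HCT116 cells by 0.40 ± 0.09 (adjusted p = 0.00974). In each line the smaller of the changes belonged to the Mut derivative, but the difference between derivatives missed the threshold (DLD1, -0.33 ± 0.12, adjusted p = 0.247, and HCT116, -0.44 ± 0.12, adjusted p = 0.051). The HCT116 difference passed in 3 of 27 alternatives, among them the test of only genes above the median level (adjusted p = 0.024).

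ADM2 (chr22:50481543-50486437), also called intermedin, is the other stress-linked peptide hormone of the set and acts through the calcitonin receptor-like receptor. Its arrays read 7.04 and 5.58 with glutamine and 18.5 and 19.5 without it in DLD1 Mut cells. In DLD1 WT cells they read 4.49 and 5.38 with glutamine and 13.8 and 8.47 without. Without glutamine ADM2 was higher on each DLD1 array than on any with it. HCT116 Mut cells had 12.5 and 14.3 with glutamine and 16.4 and 23.4 without. HCT116 WT cells had 5.75 and 10.3 with glutamine and 32.8 and 18.7 without. The HCT116 arrays did not overlap within a derivative, though replicates of ADM2 lay farther apart than those of GDF15.

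ADM2 rose by 1.60 ± 0.34 (adjusted p = 0.00416) in DLD1 Mut, 1.69 (0.00571) in HCT116 WT and 1.14 (0.0307) in DLD1 WT cells on the log2 scale. In HCT116 Mut cells the change was 0.55 ± 0.34 (adjusted p = 0.262). The mean over the derivatives was 1.24 ± 0.17 (adjusted p = 0.000118), and it was 0.52 on the log2(intensity + 16) scale, still called. The DLD1 WT call was lost without replicate 1 (0.79, adjusted p = 0.207) of the arrays without glutamine and without replicate 1 (1.01, 0.146) or 2 (1.27, 0.0704) of those with it, and on the log2(intensity + 16) scale (0.37, 0.0957). The HCT116 WT call was lost without replicate 1 with glutamine (1.27, adjusted p = 0.0518) or without it (1.28, 0.052).

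FGF19 (chr11:69698238-69704022) and FGF21 (chr19:48755524-48758330) are endocrine fibroblast growth factors, which need the co-receptor KLB at their receptors. FGF19 was bright in HCT116 cells alone. HCT116 Mut arrays read 270.1 and 336 with glutamine and 379 and 338 without. HCT116 WT arrays read 198.0 and 224 with glutamine and 381 and 385.0 without. The WT arrays moved apart, while the Mut arrays nearly touched. In DLD1 cells the 8 arrays lay between 3.32 and 6.93, with a median of 5.17, at the 47.0 to 63.6 percentile of all probe sets of their array. Arrays with and without glutamine overlapped in both DLD1 derivatives.

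FGF19 rose by 0.86 ± 0.26 in HCT116 WT cells (adjusted p = 0.0383), and changed by 0.25 in HCT116 Mut (adjusted p = 0.522), -0.31 in DLD1 Mut (0.417) and -0.12 in DLD1 WT cells (0.793). The HCT116 WT call was lost when any of its 4 arrays was left out (0.77 to 0.95, adjusted p from 0.092 to 0.163), when either HCT116 Mut array without glutamine was (0.86, 0.0501), and with no filter on dim genes (0.86, 0.0512). It was kept in 19 of 27 alternatives. The response of FGF19 in DLD1 minus that in HCT116 cells was -0.77 ± 0.26 (adjusted p = 0.0626), and -0.57 (0.00185) on the log2(intensity + 16) scale. On that scale the mean change was called too (0.24, adjusted p = 0.00208), where the main fit gave 0.17 (0.316). HCT116 Mut minus WT with glutamine (0.49, 0.0176) and the HCT116 interaction (-0.58, 0.0214) were also called there. In the main fit these were 0.52 (0.348) and -0.61 (0.345).

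FGF21 stayed near the level of the median probe set. Over the 16 arrays its intensity ran from 2.74 to 8.25 with a median of 4.35. In DLD1 WT cells it read 3.37 and 3.75 with glutamine and 7.53 and 8.21 without, and did not overlap. HCT116 Mut cells went the other way, with 7.16 and 5.16 with glutamine and 2.74 and 3.63 without. DLD1 Mut and HCT116 WT arrays with and without glutamine overlapped. FGF21 rose by 1.14 ± 0.32 in DLD1 WT (adjusted p = 0.0222) and fell by 0.95 in HCT116 Mut cells (adjusted p = 0.0427), and its mean change was 0.04 ± 0.16 (adjusted p = 0.873). The DLD1 WT call was lost without any of the 4 arrays it rests on (1.07 to 1.22, adjusted p from 0.0655 to 0.105), and the HCT116 Mut call was lost in 13 of 26 alternatives, with an adjusted p of 0.223 without replicate 1 of the arrays with glutamine. On the log2(intensity + 16) scale the DLD1 WT change was 0.29 (adjusted p = 0.0225) and the HCT116 Mut change -0.21 (0.0824).

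STC2 (chr5:173314723-173328414) is an ATF4-responsive stanniocalcin that binds pappalysin proteases. In HCT116 Mut cells its arrays read 254 and 279.9 with glutamine and 555 and 576 without. In HCT116 WT cells they read 202 and 223.0 with glutamine and 694 and 665 without. Both HCT116 derivatives were clearly apart, and the WT cells went from the lower to the higher level of the 2 derivatives. DLD1 Mut arrays read 6.88 and 8.98 with glutamine and 8.30 and 6.46 without. DLD1 WT arrays read 6.41 and 9.31 with glutamine and 2.83 and 8.33 without. In DLD1 cells the arrays overlapped, and replicate 1 of DLD1 WT without glutamine stood below the other 7.

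STC2 rose by 1.68 ± 0.39 in HCT116 WT cells, which is 3.20-fold (adjusted p = 0.0114). Its change was 1.09 ± 0.39, or 2.12-fold, in HCT116 Mut (adjusted p = 0.0536), -0.10 in DLD1 Mut (0.879) and -0.67 in DLD1 WT cells (0.244). The DLD1 WT arrays without glutamine enlarged the spread that all contrasts share: without replicate 1 or replicate 2 of that group the SE in HCT116 Mut cells was 0.20 and the adjusted p 0.00233, and with HCT116 fitted by itself the SE was 0.11 and the adjusted p 0.00154. Without replicate 2 of that group, which leaves the low array, STC2 was called lower in DLD1 WT cells (-1.45, adjusted p = 0.00306), and without replicate 1, the low array, its change there was 0.11 (0.813). The HCT116 WT call was lost without replicate 1 with glutamine (1.61, adjusted p = 0.0631), replicate 1 without it (1.65, 0.0577) or replicate 2 without it (1.71, 0.0507). The mean change was 0.50 ± 0.19 (adjusted p = 0.0553), which passed in 9 of 26 alternatives. Response in DLD1 minus HCT116 cells differed by -1.77 ± 0.39 (adjusted p = 0.0101).

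STC1, the paralogue of STC2, was dimmer still. Its intensity was between 1.86 and 2.91 on the 16 arrays, with a median of 2.45, at the 8.80 to 41.3 percentile of probe sets. It did not pass the filter on low levels and was not tested. In the order of its group means 6 of the 7 pairs of neighbours overlapped. Within a derivative, its arrays with and without glutamine overlapped only in HCT116 WT cells. A fit with no filter gave log2 changes of -0.48 in DLD1 WT and 0.22 in DLD1 Mut cells. In HCT116 Mut and HCT116 WT cells they were -0.27 and 0.14, given as values and not as calls.

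VEGFA (chr6:43770211-43786487), the ligand of the receptors FLT1 and KDR, was of middling brightness and responded in both lines. In DLD1 Mut cells its arrays read 50.5 and 48.4 with glutamine and 123 and 112 without. In DLD1 WT cells they read 26.1 and 23.0 with glutamine and 93.0 and 94.8 without. DLD1 arrays without glutamine were the 4 highest of all 16. In HCT116 Mut cells VEGFA read 54.6 and 49.0 with glutamine and 66.3 and 70.9 without. In HCT116 WT cells it read 35.7 and 42.7 with glutamine and 70.9 and 66.7 without. Arrays did not overlap within either HCT116 derivative, and without glutamine the arrays of the HCT116 derivatives overlapped each other.

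VEGFA rose by 1.24 ± 0.11 in DLD1 Mut (adjusted p = 1.9e-05), 1.94 in DLD1 WT (2.86e-06), 0.41 in HCT116 Mut (0.0178) and 0.82 in HCT116 WT cells (0.000612). The HCT116 Mut call was lost without replicate 2 with glutamine (0.33, adjusted p = 0.115) or without it (0.36, 0.0995), and with HCT116 fitted by itself (0.41, 0.0603). The mean was 1.10 ± 0.06 (adjusted p = 1.08e-07), higher in 4 of 4 derivatives. DLD1 responded more than HCT116 by 0.98 ± 0.11, a 1.97-fold difference (adjusted p = 0.000354).

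EREG and AREG lie side by side on chromosome 4 (chr4:74365145-74388749 and chr4:74445136-74455005) and encode epiregulin and amphiregulin, which are shed from membrane precursors. EREG was bright on every array, at the 99.2 to 99.7 percentile. DLD1 Mut cells read 2058 and 2005 with glutamine and 3897 and 3806 without. DLD1 WT cells read 2410.2 and 2585 with glutamine and 3346 and 3488 without. With glutamine the DLD1 Mut arrays lay below the WT arrays, and without it they lay above them. HCT116 Mut cells read 2038 and 2051 with glutamine and 3085 and 3040.5 without. HCT116 WT cells read 3380.3 and 3290.4 with glutamine and 3349 and 3405 without. EREG in HCT116 WT cells was thus high with or without glutamine and its arrays overlapped, while the Mut arrays moved up toward that level.

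EREG rose by 0.92 ± 0.08 in DLD1 Mut (adjusted p = 1.1e-05), 0.45 in DLD1 WT (0.00144) and 0.58 in HCT116 Mut cells (0.000229). In HCT116 WT cells the change was 0.02 ± 0.08 (95% interval from -0.15 to 0.19, adjusted p = 0.91). The mean change was 0.49 ± 0.04 (adjusted p = 1.73e-06). The response was larger in DLD1 than in HCT116 cells by 0.39 ± 0.08 (adjusted p = 0.00605).

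**Figure D2:**
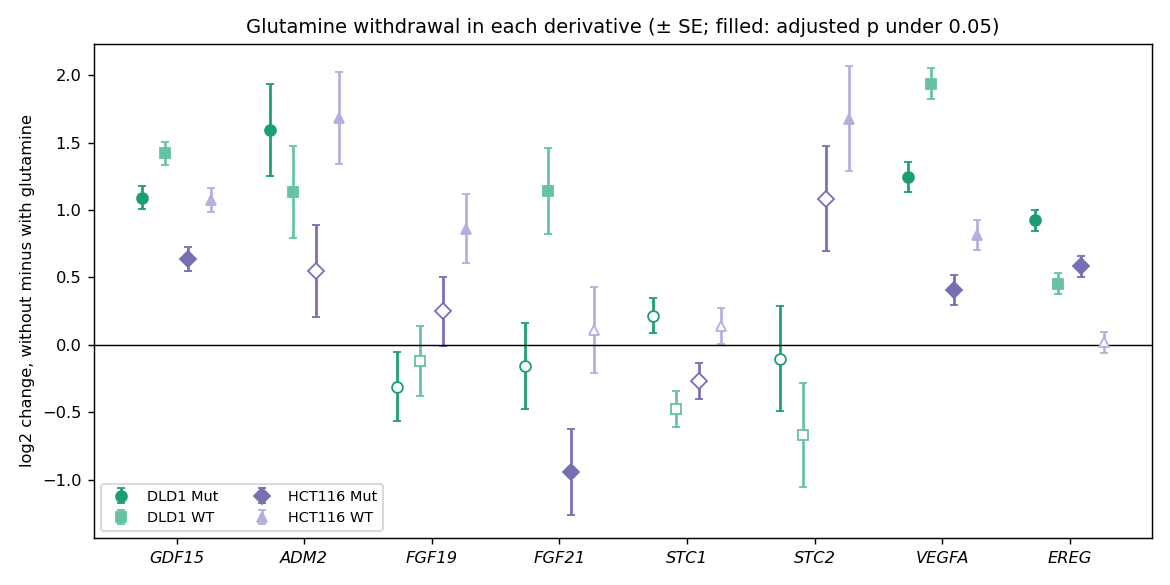
Change of each gene without glutamine (log2, without minus with, vertical axis) in the 4 derivatives, with limma's SE as bars and filled symbols where the adjusted p was under 0.05. All 4 symbols of GDF15 and VEGFA are filled and above 0, STC2 and FGF19 are filled in HCT116 WT cells, and STC1 was not tested.

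The size of the response differed between the lines for 4 of the 7 tested genes, against 19.0% of all tested genes. GDF15, VEGFA and EREG responded more in DLD1 cells and STC2 more in HCT116 cells. The difference was 0.25 ± 0.34 for ADM2 (95% interval from -0.51 to 1.01, adjusted p = 0.669), which leaves room for a difference in either direction, and 0.91 ± 0.32 for FGF21 (adjusted p = 0.0727).

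With glutamine, the Mut and WT derivatives of a line ask whether these genes differ with the PIK3CA allele kept. In DLD1 cells 3 of the 7 genes differed, against 5.81% of all tested genes: VEGFA and GDF15 were higher and EREG lower in Mut cells. VEGFA was higher by 1.01 ± 0.11 or 2.02-fold (adjusted p = 0.000483) and GDF15 by 0.64 ± 0.09 or 1.56-fold (adjusted p = 0.00153), with arrays that did not overlap. EREG was lower by 0.30 (log2 difference -0.30 ± 0.08, adjusted p = 0.0489), a call lost in 23 of 27 alternatives, with an adjusted p of up to 0.235 when replicate 2 of the DLD1 WT arrays was left out.

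In HCT116 cells with glutamine 1 of the 7 genes differed, against 3.23% of all tested genes. EREG was lower in HCT116 Mut cells by 1.63-fold (-0.71 ± 0.08, adjusted p = 0.00076), and its arrays did not overlap. VEGFA differed by 0.40 ± 0.11 (adjusted p = 0.0914) and GDF15 by 0.07 ± 0.09 (95% interval from -0.12 to 0.27, adjusted p = 0.75). EREG was thus called lower in the Mut derivative of both lines, though its DLD1 call was lost in 23 of 27 alternatives. The difference between the lines in it missed the threshold (0.41 ± 0.11, adjusted p = 0.0726) and passed in 3 of 26 alternatives. For 1 gene, GDF15, the genotype difference itself differed between DLD1 and HCT116 cells (0.57 ± 0.12, adjusted p = 0.0322), against 3.53% of all tested genes. That call was lost in 14 of 26 alternatives, with the highest adjusted p, 0.114, without replicate 2 of the DLD1 Mut arrays with glutamine.

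Without glutamine 1 of the 7 genes differed between derivatives in each line, GDF15, against 10.3% of all tested genes in DLD1 and 24.6% in HCT116 cells. The direction was opposite. GDF15 was higher in DLD1 Mut than DLD1 WT cells by 0.32 ± 0.09 (adjusted p = 0.0451) and lower in HCT116 Mut than HCT116 WT cells (-0.37 ± 0.09, adjusted p = 0.0114). The DLD1 call was lost in 21 of 27 alternatives (adjusted p up to 0.232, without replicate 1 of DLD1 Mut without glutamine). The HCT116 call was lost without replicate 2 of the Mut (-0.33, 0.0752) or WT arrays (-0.31, 0.0776) without glutamine. A share of 1 in 7 genes is near the background of each line.

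Whether the response to withdrawal differs between derivatives is the interaction of genotype and glutamine, which uses the same arrays as the comparisons above. In DLD1 cells limma called 0 of the 7 genes, against 0.823% of all tested genes. The lowest adjusted p of the 7 genes was 0.0718, shared by VEGFA (-0.69 ± 0.16) and EREG (0.47 ± 0.11). VEGFA passed in 2 and EREG in 3 of 27 alternatives. In HCT116 cells 1 of the 7 was called, against 9.49% of all tested genes: the change of EREG was larger in Mut than in WT cells by 0.56 ± 0.11 (adjusted p = 0.0104). With HCT116 fitted by itself, its adjusted p was 0.0767.

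**Figure D3:**
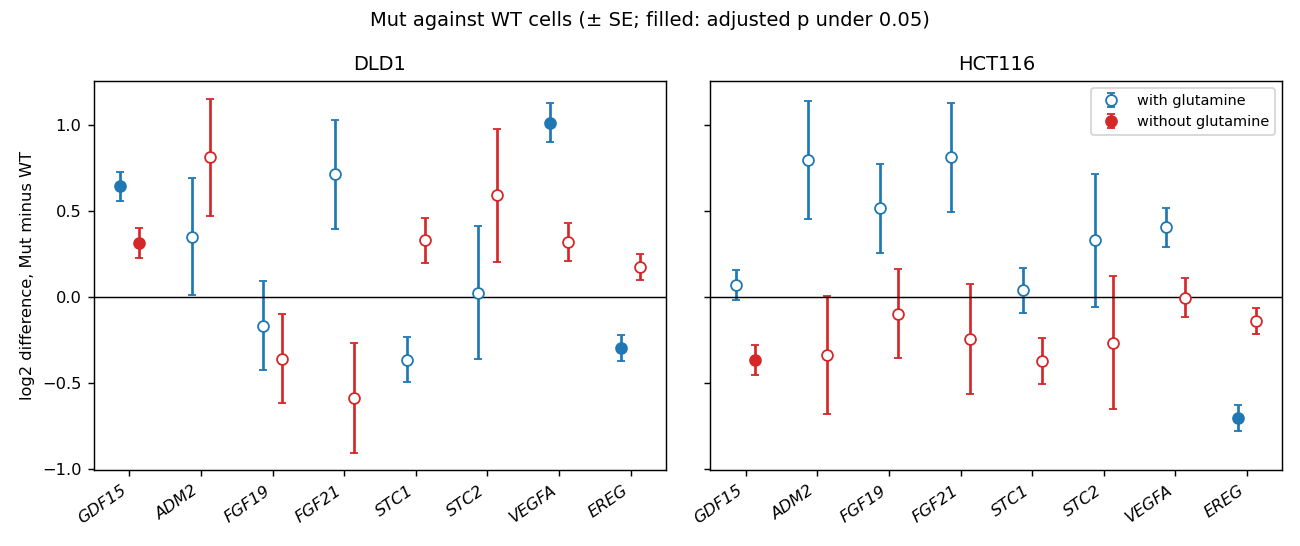
Difference between the Mut and WT derivative of each line (log2, vertical axis) with glutamine (blue) and without it (red), with limma's SE as bars and filled symbols where the adjusted p was under 0.05. EREG lies below 0 with glutamine in both lines, at -0.30 and -0.71, and GDF15 without glutamine lies at 0.32 in DLD1 and -0.37 in HCT116 cells.

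The lines differed most in FGF19 and STC2. With glutamine and averaged over both genotypes, FGF19 was 45.5-fold lower in DLD1 than in HCT116 cells (-5.51 ± 0.18, adjusted p = 2.21e-09) and STC2 30.5-fold lower (-4.93 ± 0.27, adjusted p = 9.74e-08). Since both were dim in DLD1 cells, the folds depend on the scale, and on that of log2(intensity + 16) the differences were -3.64 and -3.41. ADM2 (-0.87 ± 0.24, adjusted p = 0.0119), VEGFA (-0.37 ± 0.08, 0.00292) and EREG (-0.21 ± 0.05, 0.00733) were also lower in DLD1 cells on this average. For VEGFA and EREG the Mut arrays of the lines overlapped with glutamine, and only the WT arrays were apart. Mean log2 levels of EREG were 10.99 in DLD1 Mut and 11.00 in HCT116 Mut cells, and 11.29 and 11.70 in the WT cells. Those of VEGFA were 5.63 and 5.69 in the Mut and 4.61 and 5.29 in the WT cells. For ADM2 the difference was -0.30 (adjusted p = 0.0406) on the log2(intensity + 16) scale. In all, 5 of the 7 genes were lower in DLD1 cells and 0 higher. Of the 15676 tested genes 3534 were lower and 3838 higher, and 47.0% differed in either direction. GDF15 differed by -0.05 ± 0.06 (95% interval from -0.19 to 0.08) and FGF21 by -0.01 ± 0.23 (from -0.51 to 0.49). For GDF15 this average joined opposite gaps. Its mean log2 level was 10.79 in DLD1 Mut against 10.56 in HCT116 Mut cells, and 10.15 against 10.48 in the WT cells.

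The order of group levels summed up these patterns gene by gene. GDF15 and VEGFA had all 4 groups without glutamine above all 4 groups with it, and DLD1 Mut without glutamine was the highest for both. Neighbouring groups of GDF15 were apart except DLD1 WT and HCT116 WT without glutamine, whose arrays overlapped. FGF19 and STC2 had the 4 HCT116 groups on top, separate from each other in their arrays, and the 4 DLD1 groups below, all overlapping their neighbours. EREG did not follow glutamine alone, since HCT116 WT cells with glutamine ranked above HCT116 Mut cells without it. For ADM2 most neighbours overlapped, and the DLD1 WT group with glutamine was the lowest.

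The other genes of these pathways were read from 5 lists, each given by its counts for the mean change without glutamine, beside the 24.3% of all tested genes that rose and 23.5% that fell. Among the receptors of the 9 factors, 10 of 20 genes were tested, of which 2 rose, 7 fell and 1 was not called, with a median of -0.34. EGFR, the receptor of EREG, rose by 1.15 ± 0.06 (adjusted p = 1.13e-07), and by 1.61 and 1.36 in the Mut and 0.93 and 0.71 in the WT cells of DLD1 and HCT116. The other was NRP1, a co-receptor of VEGFA, with 0.99 ± 0.08 (adjusted p = 1.74e-06), which was named after its value was seen. Its changes were 1.49 and 1.91 in the HCT116 derivatives, 0.54 in DLD1 Mut and 0.02 (adjusted p = 0.945) in DLD1 WT cells. The receptor of FGF19, FGFR4, fell by 0.82 on the log2 scale (adjusted p = 0.00013), FGFR3 by 0.95 (0.000484), ERBB3 by 0.40 (0.000427) and NRP2 by 0.58 (0.00124). Each of these passed in 2 derivatives, FGFR4 in those of HCT116, NRP2 in those of DLD1, ERBB3 in the Mut cells, and FGFR3 in DLD1 WT and HCT116 Mut cells. The response differed between the lines for 2 of the 10 receptors, against 19.0% of all tested genes. These receptors were NRP1 (DLD1 minus HCT116 -1.42, adjusted p = 0.000255) and NRP2 (-0.95, 0.0141).

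Other ligands of the same families, listed together with the FGF-binding protein FGFBP1, went both ways. Of 22 tested genes 6 rose, 7 fell and 9 were not called, with a median of -0.19. TGFB1 (log2 change -0.94 ± 0.05, adjusted p = 1.39e-07), BMP4 (-0.75 ± 0.04, 2.63e-07), FGFBP1 (-0.77) and GDF11 (-0.79) fell, while ADM, the closest relative of ADM2, rose (0.84 ± 0.08, 5.2e-06). TGFB1 fell in all 4 derivatives. BMP4 fell in HCT116 Mut (-2.35, adjusted p = 1.93e-07) and DLD1 WT cells (-0.39, 0.00762), and its change was -0.25 (0.0718) in HCT116 WT and -0.0047 (0.977) in DLD1 Mut cells. FGFBP1 and GDF11 passed in the DLD1 derivatives, and in the HCT116 Mut and WT cells GDF11 had -0.28 (adjusted p = 0.473) and 0.06 (0.904). ADM rose by 1.91 in DLD1 Mut and 1.17 in DLD1 WT cells, and its changes in the HCT116 derivatives were -0.13 and 0.39 (adjusted p = 0.564 and 0.0973). By the test of the response itself, DLD1 minus HCT116, the lines differed in 5 of these 22 genes, against 19.0% of all tested genes. The 5 included ADM (1.41, adjusted p = 0.000235), GDF11 (-1.37, 0.00468) and BMP4 (1.10, 6.4e-05). Of other EGF receptor ligands HBEGF rose by 1.21, BTC by 0.92 and TGFA by 0.55 on average, and these 3 were named after their values were seen. HBEGF and TGFA passed in all 4 derivatives. BTC passed in those of DLD1, and its changes in HCT116 Mut and WT cells were 0.37 (adjusted p = 0.436) and 0.77 (0.119).

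Enzymes that process or shed the factors had 5 of 10 tested genes higher, 1 lower and 4 not called, with a median of 0.20. FURIN, a convertase of TGF-beta family precursors, rose by 0.44 ± 0.05 (adjusted p = 2.43e-05), and ADAM17, the sheddase of EREG and AREG, by 0.32 ± 0.04 (0.000128). The ADAM17 partners RHBDF2 (0.22, adjusted p = 0.0092) and RHBDF1 (0.27, 0.02) were called higher on average, and PCSK7 fell by 0.48. By derivative they went different ways: RHBDF1 rose in HCT116 Mut (0.82) and HCT116 WT cells (0.77) and was called lower in DLD1 WT cells (-0.55, adjusted p = 0.0318), and RHBDF2 passed in DLD1 Mut cells alone (0.58, 0.00343). ADAM17 passed in the HCT116 derivatives, and FURIN in all but DLD1 Mut cells (0.05, adjusted p = 0.772). The response differed between the lines for 2 of the 10 genes of this list, against 19.0% of all tested genes. These 2 were ADAM17 (-0.50, adjusted p = 0.00357) and RHBDF1 (-1.05, 0.00182). Of transcription factors known to act on the 9 genes 18 of 21 tested rose and 3 were not called, with a median of 0.61. They included JUN (1.96 ± 0.05, adjusted p = 3.3e-09), DDIT3 (2.94 ± 0.17, 1.96e-07), CEBPB (1.07 ± 0.06, 2.28e-07) and FOSL1 (1.02 ± 0.06, 2.38e-07), each of which passed in all 4 derivatives. ATF4 (0.78 ± 0.05) and the hypoxia factor HIF1A (0.34 ± 0.04) also rose on average and were named after their values were seen. ATF4 passed in all 4 derivatives. HIF1A passed in DLD1 Mut (0.59) and DLD1 WT cells (0.50). Its changes in HCT116 Mut and WT cells were 0.20 (adjusted p = 0.0716) and 0.09 (0.494). The response of HIF1A was larger in DLD1 than in HCT116 cells by 0.40 (adjusted p = 0.00515). An alternative chosen after seeing the data for these lists averaged the probe sets of 1 gene instead of taking the brightest. The mean change over the derivatives was then 1.62 (adjusted p = 7.19e-06) for DDIT3 and 0.01 for HIF1A, which was not called (adjusted p = 0.93). For the response in DLD1 minus HCT116 cells, 4 of the 21 factors were called higher and 2 lower. Of all tested genes 19.0% were called in either direction.

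Other secreted stress and growth factors showed 8 rising, 7 falling and 7 not called of 22 tested, with a median of 0.05. The matricellular factors CCN1 (1.95 ± 0.08) and CCN2 (1.73 ± 0.09), the cytokine LIF (0.60) and the siderophore-binding LCN2 (1.34) rose, while the neuropeptide GAL fell by 1.82. LCN2 and GAL passed in all 4 derivatives, and CCN1, CCN2 and LIF in all but HCT116 WT cells. For the response in DLD1 minus HCT116 cells, 2 of these 22 factors were called higher and 7 lower. Of all tested genes 19.0% were called in either direction.

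**Figure D4:**
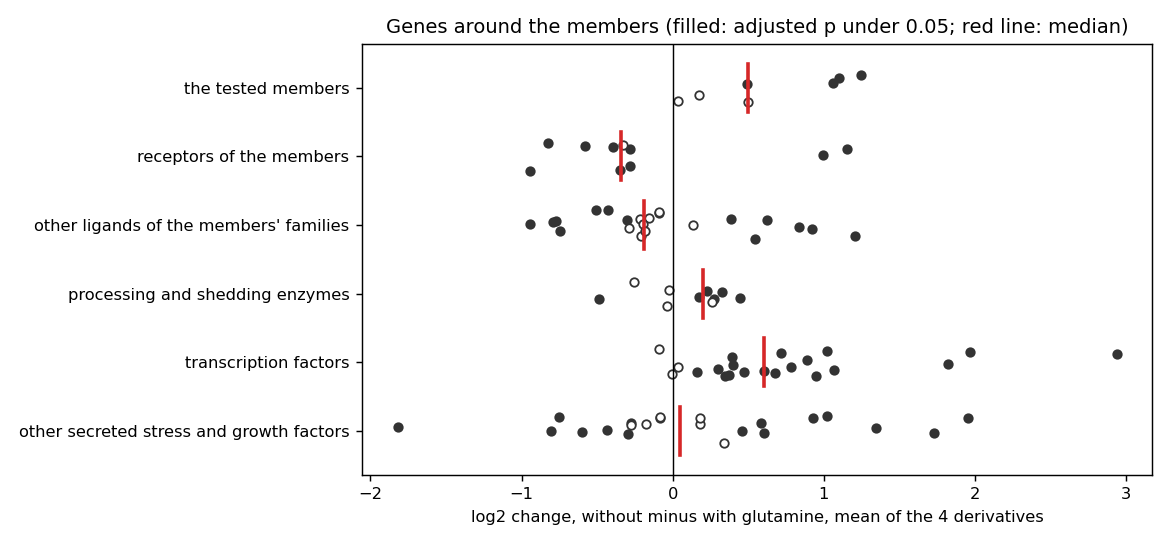
Mean change without glutamine over the 4 derivatives (log2, horizontal axis) for the 7 tested genes and the 5 lists. Each point is a gene, filled where the adjusted p was under 0.05, and the red line is the list's median, at 0.61 for the transcription factors and -0.34 for the receptors.

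Genes with the most similar pattern were sought by Pearson r over the 8 group means, after centring each gene on its mean in each line, as a description with no test. For GDF15 these were KGD4 (r = 0.991), RGP1 (0.987) and SQSTM1 (0.986), the last an autophagy receptor. For VEGFA they were PLEKHG1 (0.993), IFT43 (0.983) and SLC7A11 (0.978), the last a cystine and glutamate exchanger. STC2 had HES1 (0.967), a Notch target, then DEDD and SGMS1. EREG had TPRX1 (0.989), FIZ1 and EPB41L5, and ADM2 had OTUD6B-AS1 (0.989), PARD3 and KTN1-AS1. FGF19 had LCP1 (0.993), MIR4492 and BLCAP, and FGF21, at its low level, LMX1A (0.985), LY6G6E and ADIG. Some of these similar genes varied little: the SD of centred log2 group means was 0.08 for LCP1 and ADIG and 0.12 for BLCAP and KGD4. Others varied more, such as PLEKHG1 (0.82) and SLC7A11 (0.69). For comparison, the 2 arrays of a group differed by a median of 0.14 to 0.17 across genes. Each r rests on 8 points and is the highest of 15676 genes searched, so it describes a likeness in these groups only.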

How the data were processed

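The deposited values are 1 linear intensity per probe set and array for 53617 probe sets, and how the authors summarised and normalized them is not given in the sources used here. Per the labels, targets were biotin-labelled by the Affymetrix whole-transcript protocol. The arrays had near-equal distributions, and log2 of each deposited intensity was taken with no pseudocount. Symbols came from GEO's platform annotation: 23871 probe sets had 1 symbol, 1842 several and 27904 none, and 88 symbols were updated through a RefSeq table. Of 22395 genes, the upper 70% by mean level (log2 above 1.65) were tested.

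The test was limma's moderated one (version 3.58.1, R 4.3.3, two-sided), in 1 fit of 8 group means, with 8 residual and 2.49 prior degrees of freedom and Benjamini-Hochberg adjustment over 15676 genes. Genes were called at an adjusted p under 0.05. Errors are limma's SE. The precision is limited by 2 arrays per group, and p-values measure the spread between these. No label gives a batch.

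The 9 genes, lists and rules were chosen with earlier results of these data known. Named were the 9 genes, the 3 most similar genes of each and, per list, up to 4 called genes of lowest adjusted p in the more frequent direction and 1 in the other. Exceptions are stated. Alternatives were other filters, normalizations, a pseudocount of 16, mean probe sets, replicate blocks, eBayes with trend and robust, lines fitted separately, a 2-fold minimum and leaving out each array. The fit was tested on simulated data.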

Additional observations from a re-analysis of the deposited data

Results flagged for a closer look

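The change without glutamine differed between DLD1 and HCT116 cells for 4 genes by the test of the difference itself (limma, adjusted over all tested genes). DLD1 minus HCT116, it was 0.40 for GDF15 (adjusted p = 0.00974), 0.98 for VEGFA (0.000354), 0.39 for EREG (0.00605) and -1.77 for STC2 (0.0101). For STC2 the difference ran from -2.16 to -1.38 when arrays were left out in turn, and replicate 1 of DLD1 WT without glutamine was its lowest array.

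The difference between Mut and WT cells with glutamine was larger in DLD1 than in HCT116 cells for GDF15, by 0.57 (adjusted p = 0.0322), which ended under 14 of 26 alternatives, among them the omission of any of the 8 arrays compared. The change of EREG without glutamine was larger in HCT116 Mut than in HCT116 WT cells by 0.56 (adjusted p = 0.0104).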

How the results depend on the processing

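No called value of the 7 tested genes changed sign under an alternative. Against 98 values as reported, 2399 alternative values kept their side of the threshold, 115 lost a call, 49 gained one and 41 changed sign without being called in either. Causes were not tested beyond the smaller samples, gene numbers or added minimum that an alternative itself brings. With 2 arrays per group, the dim genes FGF21 and ADM2, and FGF19 and STC2 in DLD1 cells, limit what a call of limma can carry. No scaling moved the median of all genes by over 0.1 in any comparison (the largest shift was 0.0636). Shifting arrays to the same median did change the share of called genes that were higher, from 42.4% to 54.4% for Mut minus WT without glutamine in DLD1 and from 31% to 53.3% for the interaction in DLD1.

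With a 2-fold minimum, all genes called numbered 1281 in DLD1 Mut, 899 in DLD1 WT, 1226 in HCT116 Mut and 566 in HCT116 WT cells, 535 on average and 508 for the difference between lines. For Mut minus WT with glutamine they numbered 297 in DLD1, 138 in HCT116 and 334 for the line difference, without glutamine 345 and 755, for the interaction 63 and 517, and for the lines with glutamine 2054. Of the 7 genes limma then called 0 in HCT116 Mut and 3 in HCT116 WT cells, 1 for the difference of responses, 1 and 0 for Mut minus WT with glutamine in DLD1 and HCT116, 0 for their difference, 0 in either line without glutamine, 0 for the HCT116 interaction and 2 for the lines with glutamine.

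With each line fitted separately, all genes called numbered 2070 for withdrawal in HCT116 WT, 599 and 89 for Mut minus WT with glutamine in DLD1 and HCT116, and 3 and 430 for the interaction, and of the 7 genes 0 were called for Mut minus WT without glutamine in DLD1 and 0 for the HCT116 interaction. With log2(intensity + 16) they numbered 1438, 1004 and 967 for Mut minus WT with glutamine in DLD1, in HCT116 and for their difference, and 691 and 2319 for the interaction, with 3 of the 7 genes called in HCT116, 2 for the difference, 2 without glutamine in DLD1, and 1 and 4 for the interaction. With trend and robust they numbered 1379, 963 and 906 with glutamine and 602 for the DLD1 interaction, with 2 of the 7 called for the difference, 2 and 2 without glutamine, and 3 and 2 for the interaction. With no filter on dim genes, 46 genes were called for the DLD1 interaction, and 0 of the 7 for the difference of Mut minus WT or in DLD1 without glutamine. Above the median level, 328 were called for the DLD1 interaction, and of the 7 genes 3 for that difference, and 2 and 2 for the interaction. With arrays shifted to the same median, 0 of the 7 were called for that difference.

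Replicate numbers did not pair the samples: over 28 pairs of groups, deviations of same-numbered arrays correlated between -0.0361 and 0.0334. With a replicate block over all arrays 76 genes were called for the DLD1 interaction, and 22 with a replicate block within each line, against 129. With either replicate block 0 of the 7 genes were called for Mut minus WT without glutamine in DLD1, and with that within each line 0 for the difference of Mut minus WT with glutamine.

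Leaving out each array in turn, the number called of the 7 genes ran from 3 to 5 for withdrawal in DLD1 WT, 2 to 4 in HCT116 Mut and 2 to 5 in HCT116 WT cells. It ran from 0 to 1 for the difference of Mut minus WT with glutamine and for Mut minus WT without glutamine in DLD1 and in HCT116. All genes called ran from 2054 to 3140 for withdrawal in HCT116 WT, 459 to 887, 199 to 488 and 307 to 498 for Mut minus WT with glutamine in DLD1, in HCT116 and for the difference, 709 to 1563 without glutamine in DLD1, and 15 to 97 and 842 to 1396 for the interaction.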
